A study of Homo sapiens with 9 samples.

Results

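Loss of DDX41 was examined in MOLM13 cells, a human acute myeloid leukemia line with monocytic features, by taking 2 different hairpins as 1 knockdown group. DDX41 is a helicase of the DEAD-box family, which unwinds or remodels RNA. Cells were transduced with a pLKO-GFP lentivirus carrying a short hairpin (shRNA), which is processed into a small RNA that lowers the transcript it matches. The 3 groups were sh-Control, shDDX41 #1 and shDDX41 #2, with 3 libraries each, named A, B and D, and GFP+ cells were sorted on day 4 after transduction. All groups therefore shared transduction, GFP and the sort, and nothing in the labels says whether the letters mark separate transductions, so p-values measure only the spread between these libraries. Each hairpin is 1 sequence, and the pooled test treats the 6 libraries of the pair as independent. The 6 knockdown libraries were compared with the 3 sh-Control libraries, which together are all 9 samples of the series. Library totals ran from 16385238 to 20510032 counts. The cells were measured in bulk, so a change in the mix of cells and a change in RNA per cell cannot be told apart.

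A gene was taken as common to both hairpins when it passed the edgeR quasi-likelihood test of 6 against 3 libraries at an adjusted p under 0.05 and when its level lay on the same side of all 3 controls in every one of the 6 knockdown libraries. Levels are in CPM, counts scaled to a common library total with the trimmed mean of M-values (TMM). CPM is not divided by gene length, so levels of different genes are not compared here. The test called 863 of 12712 genes (6.79%), of which 436 were higher (3.43%) and 427 lower (3.36%). Of these, 430 higher genes (3.38% of the tested genes) and 425 lower genes (3.34%) met both conditions. The remaining 8 called genes overlapped with a control library. The higher share of the called genes was 50.5%, and it was 67.4% of 939 genes under upper quartile scaling, which shifted the median of all genes by 0.06. Without the test, 1172 genes (9.22%) lay above and 1310 (10.3%) lay below all controls in every knockdown library, so 1627 genes that separated were not called. The median log2 fold change was 0.59 among the common higher genes, −0.52 among the common lower genes and 0.01 over all tested genes. These 855 common genes are described below, and their direction and separation are what chose them.

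The biology behind the gene groups below is as follows. MHC class II molecules present peptides from the endosome to T cells, are mainly expressed by antigen-presenting cells, and depend on the coactivator CIITA together with factors bound at a shared promoter module. Cholesterol synthesis runs from acetyl-CoA through HMG-CoA and squalene, and its genes are switched on together by SREBP2 when membrane sterol falls. Fatty acid desaturases add double bonds to fatty acyl chains, and lipoxygenases and leukotriene enzymes turn one such chain, arachidonic acid, into signalling lipids. Monocytic leukemia cells express a part of the program of maturing monocytes, including lysosomal and granule proteins.

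The promoters of some common genes are shown first because members of the class II and cholesterol groups moved together. The sequences are the 150 bases before the transcription start in RefSeq (GRCh38.p14), on the coding strand, and capitals mark CCAAT or its reverse complement ATTGG. The first 3 belong to common higher class II genes and the last pair to common lower cholesterol genes. The intervals are chr6:32589849-32589998, chr6:32941029-32941178, chr5:150412911-150413060, chr5:43313413-43313562 and chr21:46228775-46228924, all on the minus strand, and HMGCS1 has 2 starts in that table, of which 1 is shown.
HLA-DRB1: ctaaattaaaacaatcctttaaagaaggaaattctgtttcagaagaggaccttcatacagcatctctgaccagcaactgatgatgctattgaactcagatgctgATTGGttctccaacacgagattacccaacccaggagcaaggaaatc
HLA-DMB: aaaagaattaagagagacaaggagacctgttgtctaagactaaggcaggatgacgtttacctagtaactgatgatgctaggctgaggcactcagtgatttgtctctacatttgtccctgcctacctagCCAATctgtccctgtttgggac
CD74: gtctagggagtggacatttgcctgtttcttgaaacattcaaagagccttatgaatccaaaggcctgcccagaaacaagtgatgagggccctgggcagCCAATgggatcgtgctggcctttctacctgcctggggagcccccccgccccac
HMGCS1: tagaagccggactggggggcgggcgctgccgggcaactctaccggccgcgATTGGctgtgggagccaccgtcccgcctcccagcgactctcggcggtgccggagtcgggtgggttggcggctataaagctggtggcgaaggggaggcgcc
LSS: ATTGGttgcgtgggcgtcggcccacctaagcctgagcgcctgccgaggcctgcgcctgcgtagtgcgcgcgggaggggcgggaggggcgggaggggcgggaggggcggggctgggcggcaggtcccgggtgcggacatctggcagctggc

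The letters CCAAT, searched on both strands in windows of 300 bases that also take in the first 50 transcribed bases, were found in 12155 of 35116 RefSeq windows (34.6%) and in at least 1 window of 39.7% of the 27305 genes that have one. Of the 7 common class II genes, 5 had a window (CD74, HLA-DMA, HLA-DMB, HLA-DQB1 and HLA-DRB1; not HLA-DRA or CIITA), and all 5 held the letters. Of the 16 common cholesterol genes, 11 had a window and 10 of these held them. They were also found in 7 of the 8 cholesterol genes with a window that were tested and not common, and in 1 of 3 such class II genes. In the other lists searched, 5 of 13 common glycolysis, 1 of 4 common lysosomal and 4 of 6 common ATF4 genes with a window held them. Among the members of these lists that were tested and not common, the counts were 8 of 18, 9 of 22 and 10 of 15. In the common genes as a whole the shares were 48.6% of the 292 higher genes with a window and 45.8% of the 321 lower ones, against 43.5% of the 9005 tested genes with a window. HLA-DRB1 and HLA-DMB further shared the unbroken run aactgatgatgcta, which starts 76 and 85 bases before their starts. It was in 2 of 35116 windows, those of these genes (0.0057%). The motif was chosen with the gene lists known, and a match of letters is a description of the sequence.

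DDX41 was examined first, in every library. It was at 116.7, 114.5 and 113.3 CPM in sh-Control A, B and D, at 12.2, 12.9 and 9.95 CPM with shDDX41 #1, and at 38.9, 39.9 and 42.5 CPM with shDDX41 #2. All 6 knockdown libraries lay far below the controls, and the hairpins formed separate levels. Pooled, it fell by 2.14 on the log2 scale (SE 0.43, edgeR adjusted p 0.0187), a loss of 77.3% of the control mean. The p was 0.0238 when CPM was permuted exactly and two-sided, the smallest that 6 against 3 libraries allow. The standard error was wide because the hairpins differed by 1.79 on the log2 scale (adjusted p 2.2e-09), and in this comparison that difference counts as spread. DDX41 lost its call without sh-Control A, B or D (adjusted p 0.0731, 0.0839 and 0.0725).

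**Figure D1:**
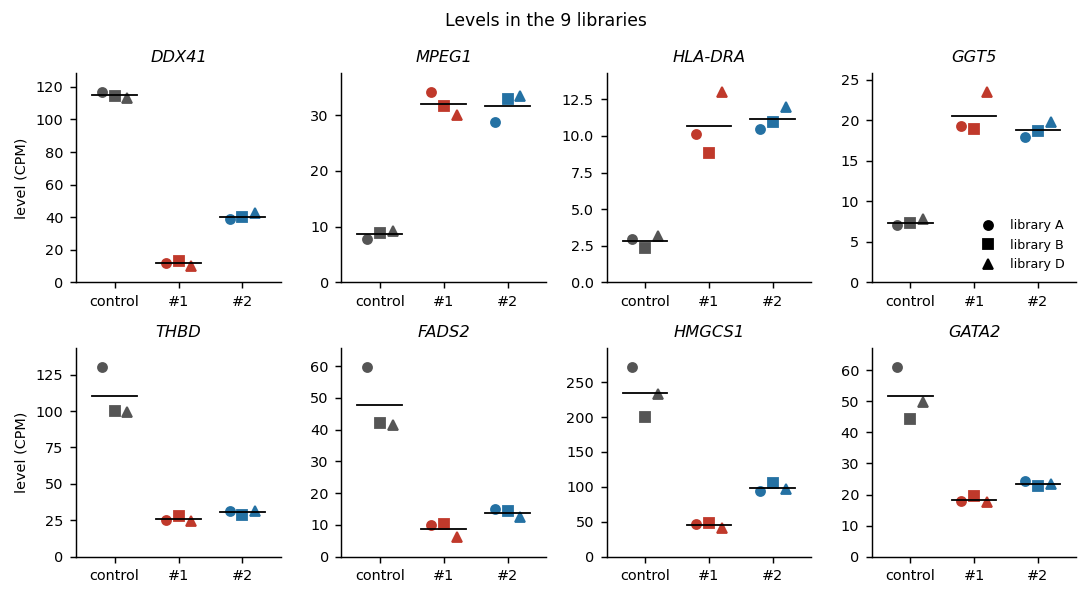
Level in CPM (linear axis from 0) of 8 genes in the 9 libraries, with 1 point per library, the shape of the point giving its letter and the line the mean of 3 libraries. DDX41, THBD, FADS2, HMGCS1 and GATA2 lie below all controls and MPEG1, HLA-DRA and GGT5 above them in all 6 knockdown libraries, and DDX41 and HMGCS1 also separate the hairpins.

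The widest gaps on the higher side were those of MPEG1, HLA-DRA and GGT5. Gap means the smallest log2 difference between any knockdown and any control library, and it is part of how these genes were picked. MPEG1, which encodes the pore-forming perforin-2 of macrophages, was at 7.88, 8.83 and 9.27 CPM in the controls. It was at 34.1, 31.7 and 30.0 CPM with shDDX41 #1 and at 28.7, 32.9 and 33.5 CPM with shDDX41 #2. The hairpins gave overlapping levels, and the rise was 3.67-fold (log2 1.88, SE 0.10, adjusted p 2.2e-05). MPEG1 shares exonic bases with DTX4 on the opposite strand in GENCODE 29.

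HLA-DRA, the alpha chain of the class II molecule HLA-DR, was at 2.94, 2.35 and 3.16 CPM in the controls. It was at 10.1, 8.86 and 12.98 CPM with shDDX41 #1 and at 10.48, 10.96 and 12 CPM with shDDX41 #2, a 3.86-fold rise (log2 1.95, SE 0.17, adjusted p 0.000327). The levels rest on 41 to 60 counts in a control library and 148 to 221 in a knockdown library. GGT5, which converts leukotriene C4 to D4, was at 7.05, 7.28 and 7.85 CPM in the controls. It reached 19.3, 18.9 and 23.5 CPM with shDDX41 #1 and 17.9, 18.7 and 19.8 CPM with shDDX41 #2 (log2 1.41, SE 0.12, adjusted p 0.000327). For these 3 genes the hairpins did not pass the test against each other (log2 differences 0.01, −0.06 and 0.13, with SE 0.09, 0.14 and 0.10), so differences of that size are within the error.

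Other common higher genes with a wide gap were PLXNC1, a plexin receptor for semaphorins, from 4.88 ± 0.63 (SD, n = 3) to 12.9 ± 1.77 CPM (n = 6) and SLC2A11, a hexose transporter, from 2.79 ± 0.05 to 6.32 ± 1.20 CPM. KIAA0226L, a Rubicon-like autophagy gene, went from 104.1 ± 16.65 to 230.2 ± 23.5 CPM. BCL6, a transcriptional repressor best known from germinal center B cells, went from 8.09 ± 0.66 to 15.8 ± 0.94 CPM (log2 0.97, SE 0.11, adjusted p 0.00117), and each of its knockdown libraries lay between 14.5 and 16.9 CPM. FGD2, an exchange factor for the GTPase CDC42, rose by 1.23 on the log2 scale. PBXIP1, a partner of PBX homeodomain proteins, rose by 0.79, and C3, the central complement component, by 1.09. KCNQ3, a potassium channel subunit, rose by 1.84, from 1.32 to 2.28 CPM in the controls to 3.64 to 10.2 CPM with knockdown. F13A1, the catalytic subunit of coagulation factor XIII and a marker of monocytes and macrophages, rose by 1.27. KCNQ3 and F13A1 lost the call without any 1 of the controls. Both also differed between the hairpins, KCNQ3 by 0.83 (adjusted p 0.0021) and F13A1 by 0.89 on the log2 scale (adjusted p 1.3e-06).

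On the lower side, THBD had the widest gap. THBD encodes thrombomodulin, a cell-surface anticoagulant receptor that monocytes also carry. It was at 130.5, 100.3 and 99.2 CPM in the controls, at 25.01, 27.7 and 24.3 CPM with shDDX41 #1, and at 31.7, 28.8 and 31.7 CPM with shDDX41 #2. All 6 knockdown libraries lay in a narrow band far below the lowest control. The fall was 3.90-fold (log2 −1.96, SE 0.12, adjusted p 2.5e-05).

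The fatty acid desaturases FADS2 and FADS1, which act in the synthesis of polyunsaturated fatty acids, followed. FADS2 was at 59.8, 42.1 and 41.5 CPM in the controls, at 10.01, 10.2 and 6.31 CPM with shDDX41 #1 and at 15.02, 14.3 and 12.4 CPM with shDDX41 #2 (log2 −2.07, SE 0.22, adjusted p 0.00117). FADS1 went from 33.5 ± 2.33 to 10.8 ± 1.72 CPM (log2 −1.63, SE 0.13, adjusted p 0.000327). Both genes overlap in GENCODE 29, so reads may be shared between them. ALOX12, the arachidonate 12-lipoxygenase, was at 54.4, 53.4 and 52.3 CPM in the controls, 22.9, 21.7 and 15.8 CPM with shDDX41 #1 and 8.21, 8.78 and 9.09 CPM with shDDX41 #2. Its fall was the larger with the hairpin that left more DDX41, by 1.21 on the log2 scale (adjusted p 1.6e-06), and it was called in the pooled comparison (log2 −1.89, SE 0.31, adjusted p 0.00822).

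GATA2, a transcription factor of blood stem and progenitor cells, was at 61.2, 44.3 and 49.9 CPM in the controls. It was at 17.9, 19.5 and 17.6 CPM with shDDX41 #1 and 24.2, 22.9 and 23.5 CPM with shDDX41 #2, which is below the controls throughout (log2 −1.30, SE 0.13, adjusted p 0.000911). RAB7B, a small GTPase of late endosomes, fell by 1.42 and LFNG, a glycosyltransferase that modifies Notch, by 1.30. ANLN, an actin-binding protein of the cleavage furrow, fell from 98.5 ± 7.42 to 46.1 ± 5.71 CPM (log2 −1.09, SE 0.11, adjusted p 0.000869). FEZ2 fell by 1.22.

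**Figure D2:**
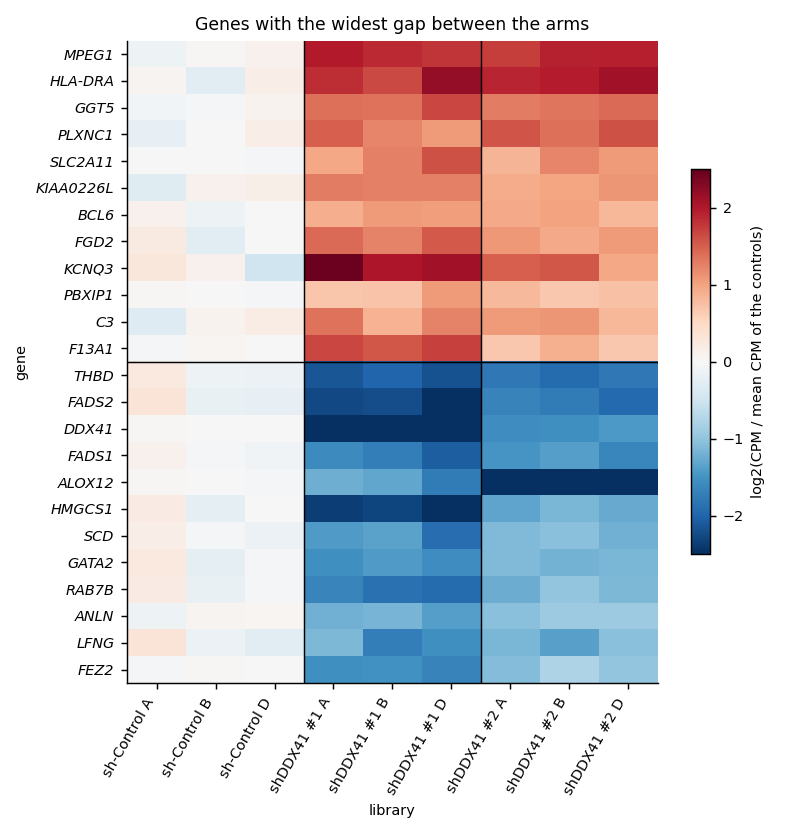
Log2 of the CPM relative to the mean CPM of the 3 controls for the 12 common higher and 12 common lower genes with the widest gap (rows) in the 9 libraries (columns). Every knockdown column is red above and blue below the line, ALOX12 is lower with shDDX41 #2, and DDX41, HMGCS1, KCNQ3 and F13A1 change more with shDDX41 #1. Values beyond 2.5 in size have the end colour.

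MHC class II genes rose together. Of 15 listed members 10 passed the filter on low counts, which the knockdown libraries alone can satisfy. HLA-DRB1 and HLA-DQB1 had 5 to 12 and 6 to 13 counts in a control library. In a knockdown library they had 16 to 38 and 13 to 36. The share therefore depends in part on the filter, and without it 6 of 13 members were common higher. Of the 10 tested members, 7 were common higher (70%, against 3.38% of all tested genes) and 0 lower, and the median log2 fold change was 0.91. The median was 0.84 with shDDX41 #1 and 1.00 with shDDX41 #2. CIITA, the class II coactivator, was at 1.499, 1.49 and 1.42 CPM in the controls, 2.83, 2.27 and 3.21 CPM with shDDX41 #1 and 2.92, 2.78 and 2.97 CPM with shDDX41 #2. All 6 exceeded the controls, at 26 or 27 counts in a control and 38 to 56 in a knockdown library (log2 0.94, SE 0.18, adjusted p 0.0149).

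CD74, the invariant chain that guards the class II groove, was the most highly counted member. It went from 168, 156 and 136 CPM in the controls to 278, 231 and 276 CPM with shDDX41 #1 and 305, 302 and 298 CPM with shDDX41 #2 (log2 0.88, SE 0.10, adjusted p 0.00199). HLA-DRB1 and HLA-DQB1, the beta chains of HLA-DR and HLA-DQ, each rose by 1.61 (adjusted p 0.0261 and 0.0282) but from 5 to 13 counts per control library. HLA-DMB and HLA-DMA, which load peptides onto class II molecules, rose by 1.93 and 0.88 (adjusted p 0.0478 and 0.0415). HLA-DMB was at 9 to 18 counts in a control library, and its rise was larger with shDDX41 #2 (log2 2.48) than with shDDX41 #1 (log2 1.00). The 3 members that were not called were RFX5, RFXANK and RFXAP, subunits of the factor that binds class II promoters, with log2 values of 0.08, 0.11 and −0.10. HLA genes have near-identical copies and alleles, and how reads matching several places were counted is not given in the sources used here, so the values of single HLA genes are uncertain. The count of 7 fell to 2 without sh-Control A, B or D and was 4 of 7 when every library had to hold at least 10 counts. HLA-DRA and CD74 also had an adjusted p under 0.01, and HLA-DRA was called under each of its 20 alternatives.

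Markers of B cells, which express class II as well, were at or near 0. MS4A1 and PAX5 had no count in any library, CD79A reached at most 14 counts, and the summed level of the 4 B cell markers ran from 0.42 to 0.86 CPM in the controls and from 0.65 to 1.26 CPM with knockdown. All 10 markers chosen for MOLM13, among them CD33, FLT3 and SPI1, were expressed. Their summed level was 2580 to 2740 CPM in the controls and 2640 to 3520 CPM with knockdown. T cell, erythroid and megakaryocyte markers summed to at most 2.18 CPM. The epithelial marker KRT8 was among the common higher genes at 1.49 to 1.94 CPM in the controls and 2.43 to 4.00 CPM with knockdown, while KRT18 ran from 13.2 to 17.6 CPM in the controls and 14.0 to 15.9 CPM with knockdown.

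Of 23 tested genes of monocyte and macrophage maturation, MPEG1 and TYROBP were common higher (8.7%, against 3.38% of all tested genes) and 0 lower. The list median was 0.16 in the pooled comparison, −0.09 with shDDX41 #1 and 0.02 with shDDX41 #2, and 1 member was common higher without any 1 of the controls. TYROBP, the adaptor of several myeloid receptors, rose by 0.59 (SE 0.12, adjusted p 0.0182). The hairpins differed for 15 of the 23 members, against 48.8% of all tested genes (6204 of 12712). LYZ, the gene of lysozyme, was at 877 to 987 CPM in the controls, 838 to 915 CPM with shDDX41 #1 and 1795 to 1833 CPM with shDDX41 #2, with log2 values of −0.10 and 0.96 for the hairpins and an uncalled pooled value of 0.53 (adjusted p 0.274). CSF1R was below all controls in every knockdown library and was not called (log2 −0.52, adjusted p 0.12). Among 15 granule and progenitor genes GATA2 was the single common member (6.67% lower, against 3.34% of all tested genes), with a list median of 0.08. Of 11 HOXA and MEIS1 genes (median 0.05), 0 were common by edgeR, DESeq2 or limma, and 1 of them were higher and 1 lower at an unadjusted p under 0.05.

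Of 37 tested lysosomal genes, 8 were common higher (21.6%, against 3.38% of all tested genes) and 0 lower, and 29 were not called. The median log2 fold change was 0.21, with 0.16 for shDDX41 #1 and 0.20 for shDDX41 #2. GRN, the gene of progranulin, was at 371, 327 and 328 CPM in the controls, 511.5, 456 and 509 CPM with shDDX41 #1 and 547, 558 and 562 CPM with shDDX41 #2 (log2 0.62, SE 0.09, adjusted p 0.004). HEXA, a subunit of hexosaminidase, rose by 0.53, PSAP, the precursor of the saposins, by 0.54, and ATP6V1H, a subunit of the proton pump, by 0.49. LAMP1, GAA and CTSA rose by 0.28 to 0.38, and CTSK rose by 0.92 from 16 to 23 counts per control library. The count was 1 to 2 without any 1 of the controls.

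Genes of cholesterol and fatty acid synthesis fell together. Of 26 tested members, 16 were common lower (61.5%, against 3.34% of all tested genes) and 0 higher, with a median log2 fold change of −0.59. The medians were −0.65 with shDDX41 #1 and −0.52 with shDDX41 #2. HMGCS1, which makes HMG-CoA, was at 272, 200 and 233 CPM in the controls, 46.2, 47.8 and 41.4 CPM with shDDX41 #1 and 94.1, 106 and 97.5 CPM with shDDX41 #2. It was lower with shDDX41 #1, the pooled value was −1.70 (SE 0.30, adjusted p 0.0103), and the hairpins differed by 1.13 (adjusted p 4.5e-07).

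INSIG1, which holds SREBP in the endoplasmic reticulum and is itself an SREBP target, was at 330, 243 and 284 CPM in the controls, 98.3, 98.6 and 102 CPM with shDDX41 #1 and 147, 139 and 144 CPM with shDDX41 #2 (log2 −1.23, SE 0.16, adjusted p 0.00286). SCD, the stearoyl-CoA desaturase, went from 743 ± 86.4 to 300.3 ± 58.3 CPM (log2 −1.31, SE 0.16, adjusted p 0.00199). SQLE and LSS act in turn on squalene and its epoxide, and they fell by 0.85 (adjusted p 0.000327) and 1.01 (adjusted p 0.000869). For SQLE the knockdown libraries lay between 142 and 149 CPM and the controls between 235 and 293 CPM, with log2 values of −0.84 and −0.86 for the hairpins. FASN, the fatty acid synthase, fell by 0.84 (adjusted p 0.00117). STARD4, MVD, IDI1, CYP51A1, FDPS, DHCR7, ACAT2 and MSMO1 were further common members, with log2 values from −1.24 to −0.57.

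Of the 10 members that were not called, SREBF2, the gene of SREBP2, was at −0.36 (adjusted p 0.0824). PMVK and TM7SF2 had values of 0.09 and 0.01. The count of 16 was 9 without sh-Control A and 11 without sh-Control B or D, and 16 or 17 without any 1 knockdown library. sh-Control A was the highest of the controls for HMGCS1, INSIG1, SCD, SQLE and FASN, and HMGCS1 lost its call without it.

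**Figure D3:**
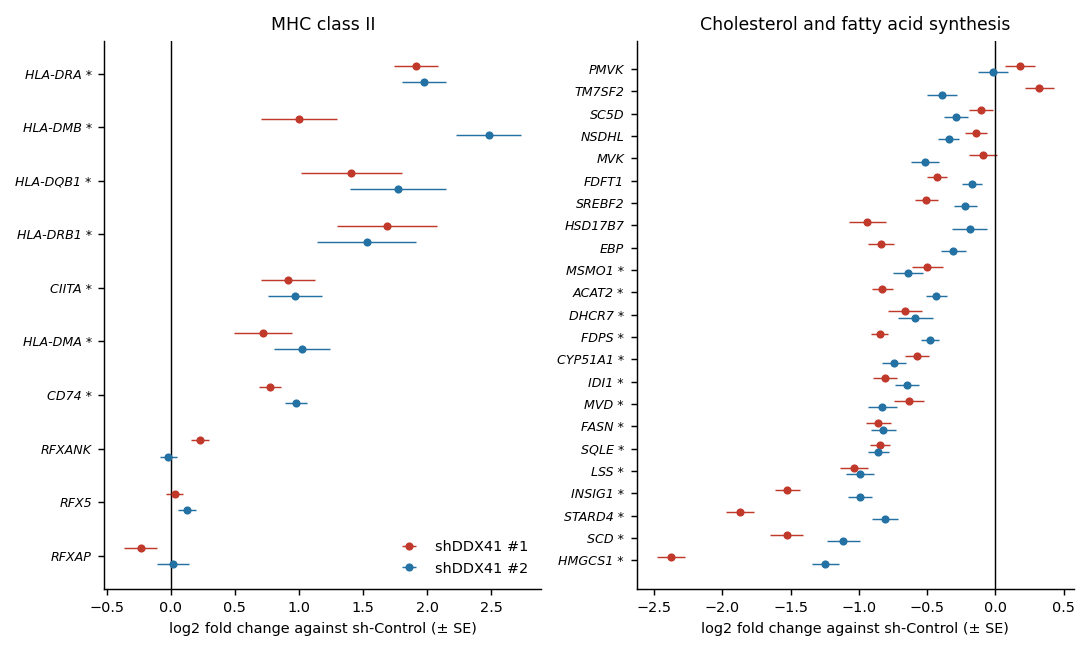
Log2 fold change against sh-Control with its standard error for the tested class II genes (left) and tested genes of cholesterol and fatty acid synthesis (right), with shDDX41 #1 in red and shDDX41 #2 in blue. An asterisk marks a common member, and the common members lie to the right of 0 on the left and to the left of 0 on the right with both hairpins. The comparisons share the same 3 controls.

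Enzymes of leukotriene and related lipid mediators went both ways. Of 15 tested members, GGT5 and DPEP2 were common higher (13.3%, against 3.38% of all tested genes) and ALOX12 common lower (6.67%, against 3.34%). DPEP2, a dipeptidase that converts leukotriene D4 to E4, went from 1.96 ± 0.14 to 4.59 ± 0.78 CPM (log2 1.22, SE 0.19, adjusted p 0.00753). The upstream leukotriene genes ALOX5, ALOX5AP, LTA4H and LTC4S were not called, with log2 values of 0.57, 0.15, 0.30 and 0.49, and LTA4H was closest to the threshold (adjusted p 0.054).

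Glycolysis and hypoxia genes formed the next largest common lower group, with 15 of 37 tested members (40.5%, against 3.34% of all tested genes), 0 higher and a median of −0.34. PFKFB4, a regulator of glycolytic flux, was at 21.9, 13.1 and 16.6 CPM in the controls, 8.32, 5.09 and 5.34 CPM with shDDX41 #1 and 3.46, 4.36 and 1.64 CPM with shDDX41 #2 (log2 −1.87, SE 0.34, adjusted p 0.0126). SLC16A3, the lactate exporter MCT4, was at 238, 195 and 209 CPM in the controls and between 115 and 136 CPM in all 6 knockdown libraries (log2 −0.76, SE 0.08, adjusted p 0.00117). ALDOC, the aldolase C gene, fell by 1.70, BNIP3, a mitophagy receptor, by 0.85, VEGFA by 0.62, and GAPDH by 0.28 (adjusted p 0.0319). LDHA showed what the common rule leaves out. It was at 1383 to 1520 CPM in the controls, 439 to 468 CPM with shDDX41 #1 and 950 to 1055 CPM with shDDX41 #2, below every control, and the pooled test did not call it (log2 −1.01, SE 0.29, adjusted p 0.0651). The hairpins differed for 23 of the 37 members (62.2%, against 48.8% of all tested genes), 12 of them lower and 11 higher with shDDX41 #1. The count of 15 was 2, 3 and 4 without sh-Control A, B and D, and 8 under upper quartile scaling.

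Genes of the ATF4 amino acid response and chaperones fell in part. Of 31 tested ATF4 genes, 8 were common lower (25.8%, against 3.34% of all tested genes) and 0 higher, with a median of −0.24. PSAT1, of serine synthesis, was at 214, 225 and 217 CPM in the controls, 125, 128 and 122 CPM with shDDX41 #1 and 154, 169 and 151 CPM with shDDX41 #2 (log2 −0.63, SE 0.11, adjusted p 0.00965). PHGDH, ASNS, TRIB3, CHAC1, AARS and PCK2 fell by 0.32 to 0.65, and the mitochondrial folate enzyme ALDH1L2 by 1.02. CBS was called and overlapped with the controls. ATF4 itself was at −0.05 (adjusted p 0.842), and the count of 8 was 2, 1 and 3 without sh-Control A, B and D. Of 23 heat shock genes HSPH1, HSPA9, HSPB1 and DNAJA1 were common lower (17.4%), and of 25 endoplasmic reticulum chaperones HSPA5 and MANF (8%). The share of all tested genes was 3.34%, and the list medians were −0.20 and −0.17. The heat shock count of 4 was 2, 1 and 1 without sh-Control A, B and D, 1 without any 1 knockdown library other than shDDX41 #1 D, and 1 under upper quartile scaling. The endoplasmic reticulum count of 2 was 0 without any 1 of the controls. HSPH1, a cytosolic Hsp110 chaperone, was at 415, 450 and 440 CPM in the controls and between 290.5 and 314 CPM in all 6 knockdown libraries (log2 −0.53, SE 0.06, adjusted p 0.00178). No member of either list was called higher.

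Cell cycle genes separated the hairpins more than they joined them. The median log2 fold change of 48 S phase genes was −0.45, made of −0.87 with shDDX41 #1 and −0.13 with shDDX41 #2. The hairpins differed for 44 of them (91.7%, against 48.8% of all tested genes), 43 lower with shDDX41 #1. Of 54 G2/M genes the hairpins differed for 51, with medians of −0.71 and −0.11. Below all controls in every knockdown library lay 20 of the 48 S phase and 14 of the 54 G2/M genes, as did 10.3% of all tested genes. Most of these were not called, and the pooled test counts the hairpin difference as spread. The common lower members were MCM6, CCNE1, POLE2, ORC6 and SLBP in S phase (10.4%) and ANLN, KIF23 and AURKA in G2/M (5.56%), against 3.34% of all tested genes. MCM6, a subunit of the replicative helicase, fell by 0.78 (adjusted p 0.00458) and went against its list, since it was lower with shDDX41 #2 (172.9 to 193 CPM) than with shDDX41 #1 (235 to 244 CPM). CCNE1, the gene of cyclin E1, was at 29.1, 33.9 and 32.2 CPM in the controls and between 17.96 and 21.7 CPM in all knockdown libraries (log2 −0.70, SE 0.09, adjusted p 0.00298).

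Of 78 cytosolic ribosomal protein genes, 46 lay above all controls in every knockdown library, as did 9.22% of all tested genes. Of these 46, RPL12, RPL22, RPLP0 and RPS27 were called (5.13% of the list, against 3.38% of all tested genes). The list median was 0.34, with 0.48 for shDDX41 #1 and 0.19 for shDDX41 #2. The hairpins differed for 54 of the 78 (69.2%, against 48.8% of all tested genes). shDDX41 #1 D had the highest list median of the knockdown libraries (0.71, against 0.14 to 0.35 in the other 5), and without it 15 were common, against 0 without any 1 control or without shDDX41 #1 A or B. It was also the library farthest from the others of its group. The 24 snoRNA host transcripts had medians of 0.74 with shDDX41 #1 and 0.01 with shDDX41 #2. EEF2 was the single common member (log2 0.50, adjusted p 0.0488), which is 4.17% of the list, against 3.38% of all tested genes. The libraries were made from polyadenylated RNA, and 0 of the 140 tested snoRNA genes were among the 855 common genes, which are 6.73% of all tested genes.

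Innate sensing, inflammatory and RNA-processing lists held few common members. TRIM22 and STAT2 were higher and XAF1 and USP18 lower among 32 interferon-stimulated genes (6.25% each way, against 3.38% and 3.34% of all tested genes), and none of the list was common without any 1 of the controls. With shDDX41 #2 alone 15 of 31 members were common higher and 2 lower, against 1898 and 1941 of all 12437 tested genes. With shDDX41 #1 alone 3 of 31 were higher and 5 lower, against 2600 and 2649 of all 12466 tested genes. The hairpins differed for 12 of the 32 (37.5%, against 48.8% of all tested genes). SAMHD1, a dNTP hydrolase, was the single common member of 13 nucleic acid sensing genes (7.69% higher, against 3.38% of all tested genes). It was at 61.0, 67.6 and 69.1 CPM in the controls, 152, 147 and 160 CPM with shDDX41 #1 and 97.0, 109 and 111 CPM with shDDX41 #2 (log2 0.97, SE 0.17, adjusted p 0.00982). SOD2, RELB and CCL4 fell among 25 NF-kB genes (12%, against 3.34% of all tested genes). SOD2 went from 106 ± 0.60 to 76.8 ± 2.19 CPM (log2 −0.47, SE 0.06, adjusted p 0.00322). Of 23 AP-1 and immediate early genes, 0 were common by edgeR and limma and 1 by DESeq2, and at an unadjusted p under 0.05 the counts were 3 higher and 3 lower. THBD was the single common member of 11 KLF factors and targets (9.09% lower, against 3.34% of all tested genes). LYAR fell among 59 ribosome biogenesis genes (1.69%, below the 3.34% of all tested genes). The hairpins differed for 49 of these 59 (83.05%, against 48.8% of all tested genes), with medians of 0.04 with shDDX41 #1 and −0.26 with shDDX41 #2. With shDDX41 #2 alone 44 were lower, against 1941 of all 12437 tested genes. DDX41 was the single common DEAD-box helicase of 37 (2.7% lower, against 3.34% of all tested genes). SYF2, SLU7 and AQR rose and SNRNP70 fell among 53 core spliceosome genes, with sizes of 0.25 to 0.58. These shares (5.66% higher and 1.89% lower) lie near those of all tested genes, and none of the 4 was common without any 1 of the controls. AQR, an RNA helicase counted in both lists, rose by 0.30 and SRSF2 fell by 0.24 among 28 genes that act on R-loops. These shares (3.57% each way) also lie near those of all tested genes, and neither gene was common without any 1 of the controls. Without the test, 8 of these 28 lay below and 2 above all controls in every knockdown library, against 10.3% and 9.22% of all tested genes. The list median was −0.21, and at an unadjusted p under 0.05 in the edgeR test 2 were higher and 10 lower. The list medians of nucleic acid sensing and core spliceosome genes were −0.05 and −0.03 and turned positive under upper quartile scaling.

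**Figure D4:**
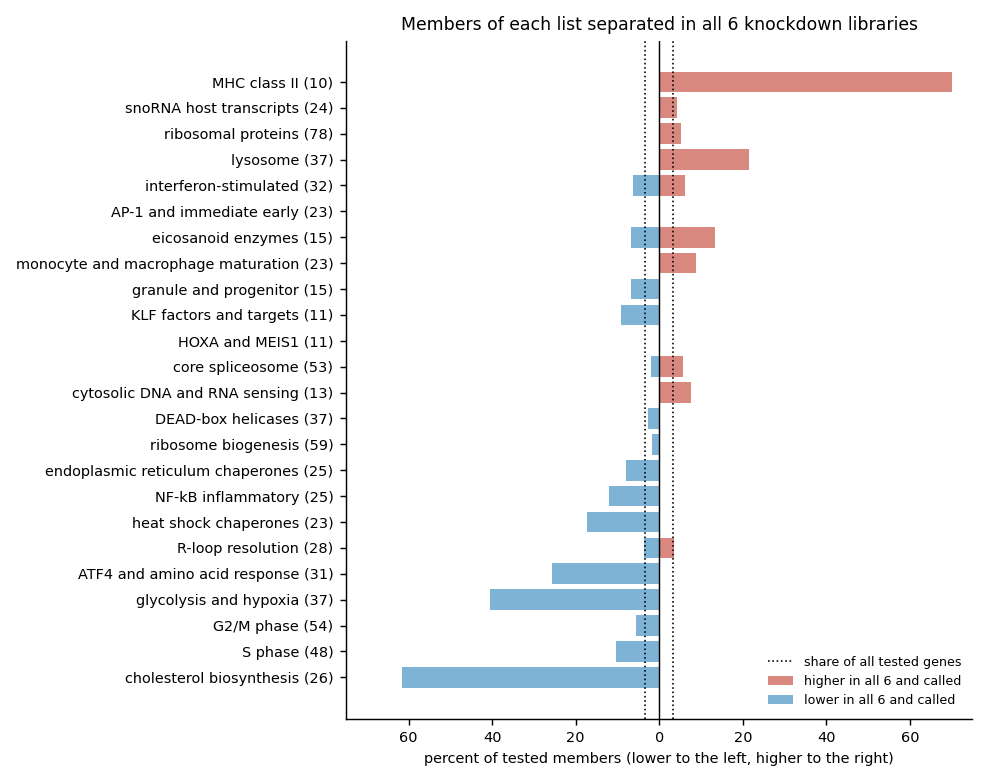
Percent of the tested members of each gene list (number tested in brackets) that were called and lay above (right) or below (left) all 3 controls in all 6 knockdown libraries, with dotted lines at the shares of all tested genes, 3.38% and 3.34%. The class II bar reaches 70% on the right, and the cholesterol bar 61.5% and the glycolysis bar 40.5% on the left.

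**Figure D5:**
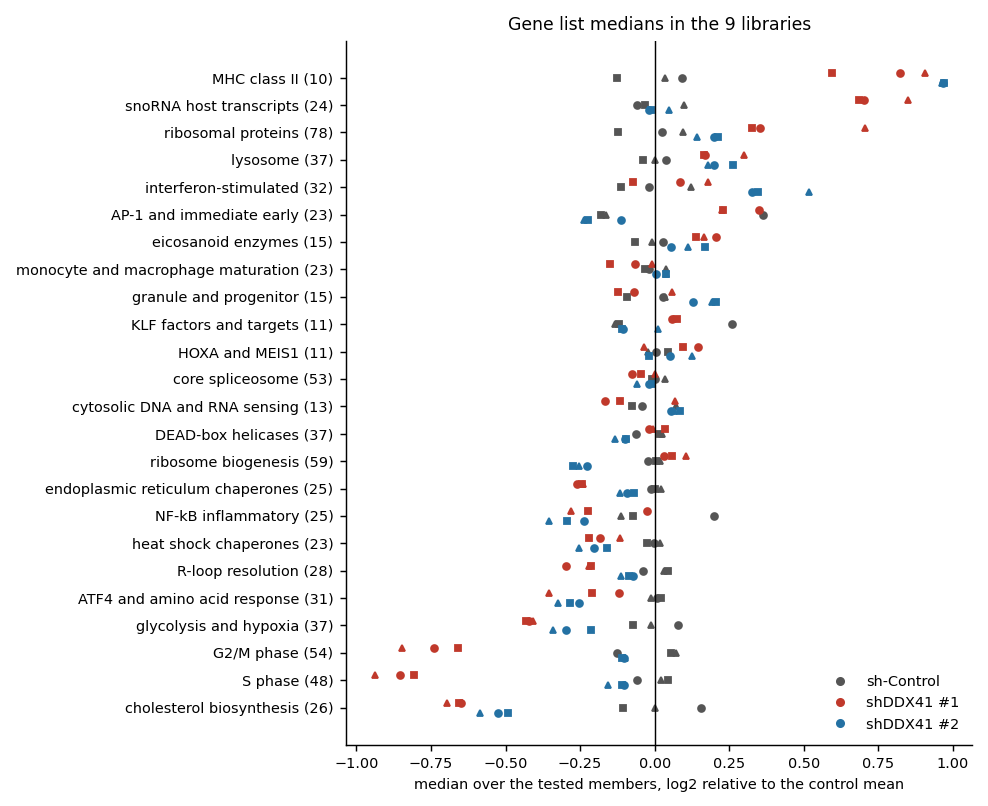
Median over the tested members of each list in each of the 9 libraries, as log2 relative to the mean of the controls, with the libraries coloured by group. Class II and cholesterol medians of all 6 knockdown libraries lie apart from the controls, while S phase, G2/M and snoRNA host medians lie apart with shDDX41 #1 and within 0.16 of 0 with shDDX41 #2.

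The hairpins were compared within the common genes. Their difference passed the test for 128 of the 430 higher genes (29.8%) and 160 of the 425 lower genes (37.6%). Of the 128, 82 rose more with shDDX41 #1 and 46 more with shDDX41 #2. Of the 160, 120 fell more with shDDX41 #1 and 40 more with shDDX41 #2. These shares lie below the 48.8% of all tested genes, and the pooled test counts a difference between the hairpins as spread, so it favours genes where that difference is small. ITGB7, an integrin chain, was among the common genes with the largest such difference. It was at 14.5, 14.9 and 14.6 CPM in the controls, 25.3, 20.9 and 24.8 CPM with shDDX41 #1 and 50.1, 53.2 and 44.6 CPM with shDDX41 #2, a difference of 1.06. MDM2, a ubiquitin ligase, and ZSCAN30, a zinc finger gene, differed the other way. MDM2 was at 147 to 155 CPM in the controls, 370 to 400.3 CPM with shDDX41 #1 and 202 to 217 CPM with shDDX41 #2. ZSCAN30 was at 2.17 to 3.27, 10.9 to 11.7 and 5.06 to 5.40 CPM.

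Gene type was not used by the rule. Long noncoding RNA genes made up 24 of the 419 higher genes matched to RefSeq (5.73%) and 5 of the 425 lower ones (1.18%), against 3.64% of the tested genes that matched. A change of at least 2-fold, which the rule does bear on, was found for 79 of the higher and 50 of the lower genes.

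At the edge of the rule, LILRB4 (96.1 CPM in its lowest knockdown and 95.5 CPM in its highest control library) and NCOA3 lay just inside on the higher side, and NIPAL3 and SNX29 were called and lay just outside. On the lower side EIF4EBP1 and MNS1 lay just inside, and HSPE1 and CBS just outside. For NCOA3, NIPAL3 and SNX29, shDDX41 #1 D was the knockdown library nearest to the controls.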

How the data were processed

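RNA from GFP+ MOLM13 cells (Zymo column kit) was made into poly(A) libraries, named TruSeq Stranded mRNA in the labels and TruSeq RNA v2 in the study's methods. Whether counting used strand is therefore not known, and 25 of the 77 described genes found in GENCODE 29 share exonic bases with another gene. The deposited table holds raw whole-number counts per gene symbol in 9 libraries. The submitters' processing notes name FastQC 0.11.7, HISAT2 2.0.5, featureCounts 1.5.2 and the builds hg38 and mm10 without a role. The annotation, strand setting and treatment of multimapping reads are not given in the sources used here.

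Of 30017 genes, 10641 had no count, and 12712 passed filterByExpr (minimum count 10 on both arms). Counts were TMM-scaled (factors 0.963 to 1.02) and tested with edgeR 4.0.16 (quasi-likelihood, R 4.3.3), with Benjamini-Hochberg adjustment over all tested genes at 0.05. The pooled fit had 2 arms and no covariate, so that differences between hairpins count as spread, and the hairpins were compared in a fit of 3 groups. The coefficient of biological variation was 0.164 in the pooled fit and 0.0768 in the fit of 3 groups. Log2 gaps used a prior count of 2. The code was tested on simulated data.

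Genes were described by a rule: the 12 higher and 12 lower common genes with the widest gap and a mean of at least 5 CPM in the higher arm, the 4 per direction with the largest hairpin difference, up to 3 common members per list and direction with the widest gap, DDX41, and the 2 genes just inside and just outside on each side. The remaining genes named are list members or markers. The members and lists were chosen with earlier results of these data known. Alternatives were other scalings, filters, thresholds, DESeq2 1.42.0, limma 3.58.1 (voom), a block on the library letter, each hairpin alone, and each library left out. Same-letter libraries correlated at −0.0574 to 0.243 in their deviations from group means. Replicates differed by more than sampling noise (chi-square per degree of freedom 2.45 to 19.2, the highest for shDDX41 #1 D). Some members of the lists are counted and not reported here by name.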

Additional observations from a re-analysis of the deposited data

Results flagged for a closer look

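The hairpins differed in the edgeR comparison (adjusted p under 0.05) for 34 of the 78 described genes, some of which were chosen for that difference. Values are log2 differences, shDDX41 #1 minus shDDX41 #2. Among common higher genes, those that rose more with shDDX41 #1 were KIAA0226L (0.25), FGD2 (0.37), KCNQ3 (0.83), F13A1 (0.89), ZSCAN30 (1.11), MDM2 (0.90), TRIM22 (0.67), STAT2 (0.48), SAMHD1 (0.53), RPL22 (0.26), RPLP0 (0.25), EEF2 (0.39) and SYF2 (0.30). Those that rose more with shDDX41 #2 were ITGB7 (−1.06), GRN (−0.18), ATP6V1H (−0.18) and LILRB4 (−0.28). Among common lower genes, those that fell more with shDDX41 #1 were DDX41 (−1.79), FADS2 (−0.65), HMGCS1 (−1.13), SCD (−0.42), GATA2 (−0.36), RAB7B (−0.70), ANLN (−0.29), FEZ2 (−0.63), ALDH1L2 (−0.81), PSAT1 (−0.34), MANF (−0.36), INSIG1 (−0.53) and KIF23 (−0.57). Those that fell more with shDDX41 #2 were ALOX12 (1.21), ALDOC (1.40), PFKFB4 (0.96) and MCM6 (0.37).

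In 11 of the 78 genes 1 of the 6 knockdown libraries stood apart from the others, by a gap that took up more of their range than Dixon's 95% critical value for 6 allows. Chance gives about 1 in 20 such groups for 6 draws from 1 population. That rate does not hold here, since the 6 libraries come from 2 hairpins. In addition, NCOA3, NIPAL3, EIF4EBP1 and CBS were described because they lie at the edge of the rule. In 10 of the 11 it was shDDX41 #1 D, with gaps of 0.671 of the range for GGT5, 0.69 for PBXIP1, 0.759 for TYROBP, 0.79 for RPL12, 0.696 for RPL22, 0.663 for SYF2, 0.77 for AQR, 0.662 for NCOA3, 0.921 for NIPAL3 and 0.635 for EIF4EBP1. shDDX41 #1 A stood apart for CBS (0.73). Without shDDX41 #1 D the comparison called 933 genes.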

How the results depend on the processing

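The pooled comparison called 863 genes, with 430 common higher and 425 common lower. The test, the threshold and the libraries moved these counts most. The DESeq2 Wald test called 1722 (812 and 744 common) and the mean of both hairpins in a fit of 3 groups 4716 (1082 and 1226), since the latter takes the hairpin difference out of the spread. An adjusted p under 0.01 left 148 (66 and 82), and a fold change of at least 2 left 132 (79 and 50). Only shDDX41 #1 gave 5404 (2600 and 2649) and only shDDX41 #2 gave 3979 (1898 and 1941). With 1 library left out, the calls ran from 132 to 933, the common higher genes from 50 to 503 and the common lower genes from 82 to 427. The lowest counts came without a control (195, 132 and 190 called without sh-Control A, B and D), and the highest without shDDX41 #1 D. Other scalings, filters and limma gave 619 to 939 calls. The number of genes called, shDDX41 #1 against shDDX41 #2, was 6204, or 833 at a fold change of at least 2.

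Whether the letters A, B and D pair libraries across groups is not given in the labels, and the correlations of same-letter libraries do not settle it. With them as a replicate block 316 genes were called (149 and 166 common), and DDX41 was at −2.14 (adjusted p 0.0674). DDX41 ran from −2.33 to −1.96 with 1 library left out. Of 78 described genes 28 were called under all their alternatives of scaling, filter, tool, block and libraries, at an adjusted p under 0.05 and with no minimum fold, and 0 changed direction. Of 480 list medians 11 changed sign. The cause of these shifts was otherwise not tested. The common class II genes other than CD74 had at most 60 counts in a control library.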
